A study of Mus musculus with 8 samples.

Results

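The 10 genes described here encode the Bcl2 family of survival and death proteins: Bcl2, Bcl2l1, Mcl1, Bcl2l11, Bmf, Bax, Bak1, Bbc3, Pmaip1 and Bid. They were chosen as a list of family members by name, not by their values, and were read from the count files. All 10 were in the files, which list 23420 genes, and all 10 passed the filter on low counts that left 11409 genes to test. RNA sequencing measured total RNA from wild-type mouse thymus in 8 libraries, 2 in each of 4 groups: BALB whole thymocytes, B6 whole thymocytes, BALB DP thymocytes and B6 DP thymocytes. Strain is read from the library names and no substrain, age or sex is given in the labels. DP (double-positive) thymocytes were live-sorted as CD4+CD8+ cells that lacked CD69 and stained low or intermediate with H57, which detects T cell receptor beta on the surface. Whole thymocytes include these cells and double-negative precursors, mature single-positive cells and a few non-thymocytes. No label says that the libraries of a group are from separate animals, and p-values measure only the spread between these samples. That spread may be technical, except between the BALB whole libraries, whose sex-linked transcripts differ (values below).

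The Bcl2 family controls the mitochondrial route to apoptosis. Survival members (Bcl2, Bcl2l1, whose main product is Bcl-xL, and Mcl1) bind and restrain the pore-forming members Bax and Bak1, which otherwise permeabilise the outer mitochondrial membrane. BH3-only members (Bcl2l11, also called Bim; Bmf; Bbc3, also called Puma; Pmaip1, also called Noxa; and Bid) occupy the groove of the survival members or engage Bax and Bak1 directly. In mouse thymus, Bcl-xL is known to keep DP cells alive while they rearrange the T cell receptor alpha chain, Bcl2 is known to be low in DP cells and high in mature ones, and Bim is known to mediate the deletion of self-reactive thymocytes.

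Promoter windows are shown for 4 members, Bcl2 and Bmf because their transcripts differed most between the groups, and Bcl2l11 and Bbc3 because theirs were the only member windows with a forkhead motif. Each holds the 250 bases before a RefSeq transcript start on GRCm38.p6 (mm10), printed 5′ to 3′ on the strand of the gene. Capitals mark matches, on either strand and counting overlaps, to a GC box (GGGCGG), an E-box of the form CAGCTG, an E-box of the form CACCTG or the forkhead motif GTAAACA. The printed matches do not overlap each other. Of 32851 such windows in the genome's RefSeq table, 3.17% held the forkhead motif, 32.7% the GC box, 13.0% CAGCTG and 17.2% CACCTG. A match describes letters only. Windows of 9 of the 10 members were searched, and Pmaip1 was not.

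The Bcl2 window lies at chr1:106714291-106714540 on the minus strand, with 7 GC boxes and a GC content of 74.8%.
Bcl2: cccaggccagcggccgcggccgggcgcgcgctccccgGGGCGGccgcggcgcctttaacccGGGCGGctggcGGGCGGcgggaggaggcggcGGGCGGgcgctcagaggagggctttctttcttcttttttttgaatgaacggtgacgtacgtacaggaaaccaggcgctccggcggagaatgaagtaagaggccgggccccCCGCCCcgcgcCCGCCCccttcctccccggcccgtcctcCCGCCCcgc
Bmf has 3 listed starts, and their windows hold CAGCTG matches and no GC box. They lie on the minus strand at chr2:118549687-118549936, chr2:118547600-118547849 and chr2:118544588-118544837, from the most upstream start to the most downstream. Their GC content is 54.0% in the upstream and middle windows and 55.6% in the downstream window.
Bmf upstream: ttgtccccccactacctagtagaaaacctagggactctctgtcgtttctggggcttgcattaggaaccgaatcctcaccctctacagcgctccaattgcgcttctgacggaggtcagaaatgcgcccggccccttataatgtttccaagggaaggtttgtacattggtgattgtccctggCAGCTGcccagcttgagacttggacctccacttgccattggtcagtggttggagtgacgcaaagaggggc
Bmf middle: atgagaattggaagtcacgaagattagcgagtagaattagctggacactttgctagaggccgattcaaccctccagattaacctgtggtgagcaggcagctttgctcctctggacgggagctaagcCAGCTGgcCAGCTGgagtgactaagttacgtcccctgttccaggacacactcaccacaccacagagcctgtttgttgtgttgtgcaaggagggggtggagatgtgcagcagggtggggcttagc
Bmf downstream: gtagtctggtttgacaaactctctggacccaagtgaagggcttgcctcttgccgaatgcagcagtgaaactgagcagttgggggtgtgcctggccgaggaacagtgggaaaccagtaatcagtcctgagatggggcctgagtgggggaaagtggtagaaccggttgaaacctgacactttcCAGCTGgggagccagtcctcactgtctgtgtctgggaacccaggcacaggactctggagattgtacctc
Bcl2l11 has 2 listed starts and Bbc3 has 3, and only the window with the forkhead motif is shown for each. The other Bcl2l11 window holds 2 GC boxes and the other Bbc3 windows hold 5 and 7. The Bcl2l11 window at chr2:128125788-128126037 on the plus strand holds 1 forkhead motif and 3 GC boxes.
Bcl2l11: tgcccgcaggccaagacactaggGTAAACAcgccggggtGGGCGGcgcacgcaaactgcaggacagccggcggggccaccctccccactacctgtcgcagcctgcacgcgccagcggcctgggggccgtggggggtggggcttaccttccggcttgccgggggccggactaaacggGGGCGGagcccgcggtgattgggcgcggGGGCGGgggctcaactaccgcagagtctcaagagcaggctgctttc
The Bbc3 window at chr7:16310011-16310260 on the plus strand holds 1 forkhead motif, 1 GC box and 2 CACCTG boxes.
Bbc3: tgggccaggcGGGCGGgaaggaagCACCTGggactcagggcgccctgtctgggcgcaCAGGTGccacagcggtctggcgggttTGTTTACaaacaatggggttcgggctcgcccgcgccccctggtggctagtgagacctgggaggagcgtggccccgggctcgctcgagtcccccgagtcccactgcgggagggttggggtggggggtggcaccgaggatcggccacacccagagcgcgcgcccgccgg

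Between 2632083 and 5974684 reads per library were counted in genes. Values are CPM, the read count of a gene relative to the library total, after TMM scaling between libraries. Defining DP markers (Rag1, Cd4 and Cd8a among a list of 10) were present in all 8 libraries, and S1pr1, the egress receptor of mature thymocytes, had at most 1 count in any DP library. The libraries of BALB DP thymocytes stood furthest apart from each other, with a chi-square of 16.9 per degree of freedom over genes, against 1.61 to 4.24 in the other groups. Replicate 1 of that group also had the lowest share of its gene counts in the ribosomal precursor Rn45s, 3.14%. Replicate 1 of BALB whole thymocytes differed from all other libraries in sex-linked transcripts (Xist 12313 counts, Ddx3y 0). Replicate 2 of that group had 203 and 725 counts, so the libraries of BALB whole thymocytes are not from the same animal. The other groups had 6 to 24 counts of Xist and 444 to 1177 of Ddx3y, so sex is not balanced over the groups. Fits without each library, and without both of these replicates, are given where they change a member's call.

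Members called in each comparison are given beside the share of all genes called in it. In bulk RNA, fewer cells of a type and less RNA per cell cannot be told apart. A gene was called at a Benjamini-Hochberg adjusted p under 0.05 in edgeR's quasi-likelihood test, adjusted over all 11409 genes. In BALB mice 3 of 10 members were called between whole and DP thymocytes, 1 higher (Bcl2) and 2 lower (Bcl2l1 and Bmf) in whole thymocytes, where 17.2% of all tested genes were called, 10.6% higher and 6.59% lower. In B6 mice 3 of 10 were called, the same genes in the same directions, against 10.2% of all genes, 6.89% higher and 3.27% lower. Between the strains, 2 of 10 were called in DP thymocytes (Bcl2 higher and Bmf lower in BALB), against 13.0% of all genes, 6.85% higher and 6.14% lower. In whole thymocytes 1 of 10 was called (Bmf lower in BALB), against 4.59%, 1.98% higher and 2.61% lower. Averaged over both populations, 3 of 10 were called between BALB and B6 (Bcl2 and Bax higher, Bmf lower), against 13.9% of all genes, 6.59% higher and 7.32% lower. With 10 genes, 1 member more or less moves its share by 10 percentage points, and an excess over the background was not tested. Comparisons that share a group share its libraries and are not independent.

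**Figure D1:**
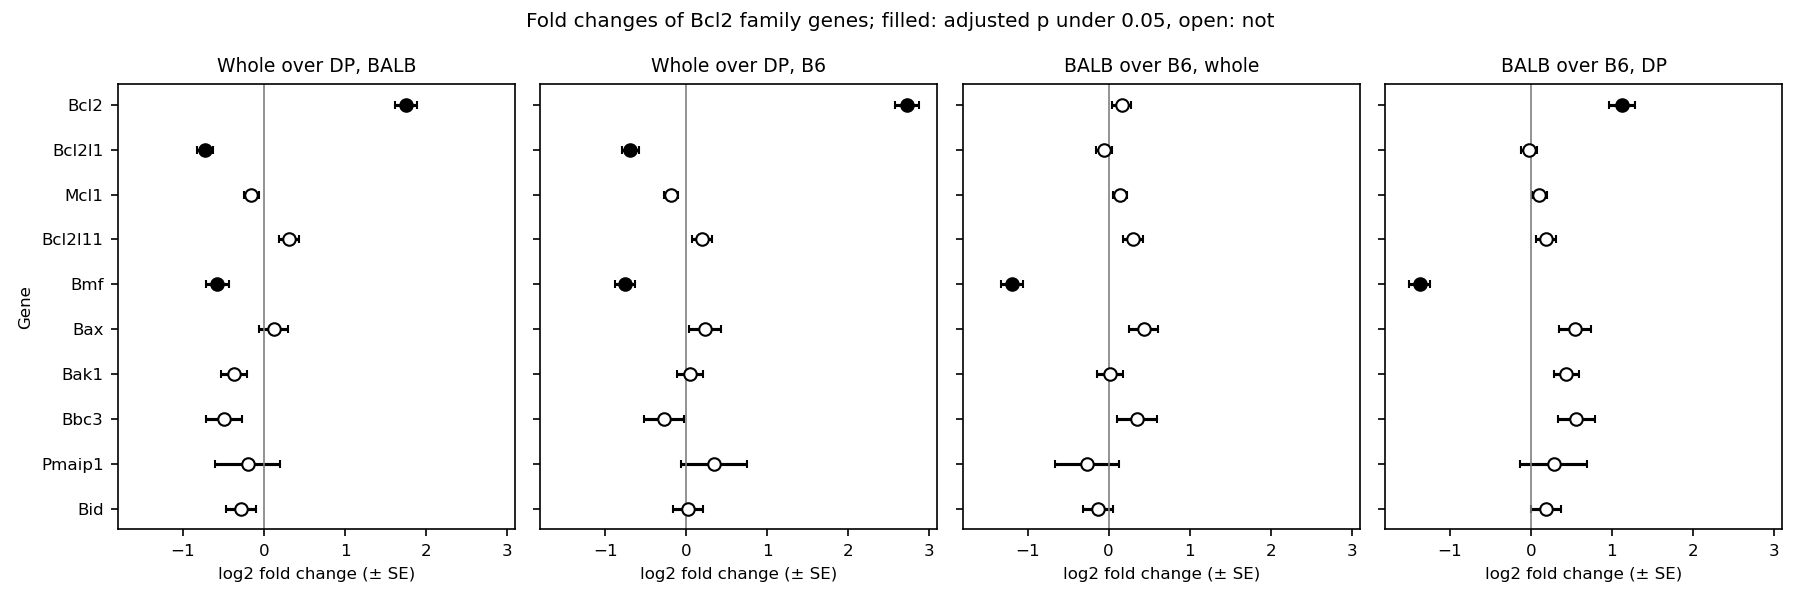
Log2 fold changes (x axis, ± SE from the edgeR fit) of the 10 members (y axis), for whole over DP thymocytes in BALB and in B6 and for BALB over B6 in whole and in DP thymocytes. Filled points are genes called at an adjusted p under 0.05: Bcl2 at 1.75 and 2.72, Bcl2l1 at -0.73 and -0.69 and Bmf at -0.58 and -0.76 for whole over DP thymocytes, and Bmf at -1.19 and -1.37 and Bcl2 at 1.13 (DP only) for BALB over B6.

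The typical member moved about as much as the typical gene. The median size of the log2 fold change (sign ignored) was 0.34 for the members and 0.28 for all genes for whole over DP thymocytes in BALB, and 0.26 and 0.23 in B6. For BALB over B6 it was 0.36 for the members and 0.28 for all genes in DP thymocytes, and 0.21 and 0.17 in whole thymocytes.

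Levels of different members were compared as CPM per kilobase of exon, with exon lengths taken from GENCODE M21, which may not be the annotation the reads were counted with. Mcl1 was the highest member in every group, at 130.2 ± 4.83 CPM per kb in BALB whole, 118 ± 2.95 in B6 whole, 145 ± 1.39 in BALB DP and 135 ± 0.873 in B6 DP thymocytes (SD, n = 2 each). Bcl2l1 came next in every group, at 50.7 ± 2.45, 52.7 ± 5.51, 84.0 ± 0.390 and 85.1 ± 1.60 CPM per kb in the same order of groups. Libraries of Mcl1, Bcl2l1 and the gene after them did not overlap within any group. Pmaip1 was the lowest in every group, at 1.05 to 1.35 CPM per kb.

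The middle of the order differed between groups. Bak1 was the third in BALB whole (16.9 ± 0.179 CPM per kb), B6 whole (16.6 ± 2.50) and BALB DP thymocytes (21.7 ± 1.68), whereas Bmf was the third in B6 DP thymocytes (21.3 ± 0.176), above Bak1 (16.0 ± 1.96; SD, n = 2 each). Bcl2 stood sixth in whole thymocytes of both strains, at 11.7 ± 0.522 CPM per kb in BALB and 10.5 ± 0.965 in B6. In DP thymocytes of both strains Bcl2 stood ninth, at 3.47 ± 0.00957 CPM per kb in BALB and 1.58 ± 0.0562 in B6, above Pmaip1 alone. These places of Bcl2 depend on the exon lengths. Mean CPM was 31.8 for Bcl2, 28.9 for Bid, 21.1 for Bbc3 and 18.7 for Bax in BALB DP thymocytes. In BALB whole thymocytes it was 107 for Bcl2 and 40.6 for Bak1. Neighbours whose libraries overlapped were Bcl2l11 and Bax, Bbc3 and Bid, and Bid and Bmf in BALB whole thymocytes, Bcl2l11 and Bcl2 in B6 whole, Bmf and Bid in BALB DP, and Bid and Bbc3 in B6 DP thymocytes.

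The survival genes made up most of the family's transcripts everywhere. Their share of the summed CPM per kb over the 10 members was 75.5% and 74.8% in BALB whole, 74.1% and 73.7% in B6 whole, 76.5% and 76.1% in BALB DP, and 76.3% and 75.7% in B6 DP libraries. The share varied little although its parts did not. Bcl2 supplied 6.32% and 5.85% of the survival sum in BALB whole, 6.07% and 5.48% in B6 whole, 1.48% and 1.50% in BALB DP, and 0.699% and 0.731% in B6 DP libraries. Bmf supplied 18.4% and 14.2% of the BH3-only sum in BALB whole, 32.3% and 34.4% in B6 whole, 22.4% and 20.0% in BALB DP, and 46.5% in each of the B6 DP libraries. Among the 5 listed BH3-only members, Bmf was therefore the highest per kb in both B6 groups, and Bcl2l11 was in both BALB groups. In B6 whole thymocytes this order depends on the exon lengths, since mean CPM was 66.2 for Bmf and 89.6 for Bcl2l11.

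**Figure D2:**
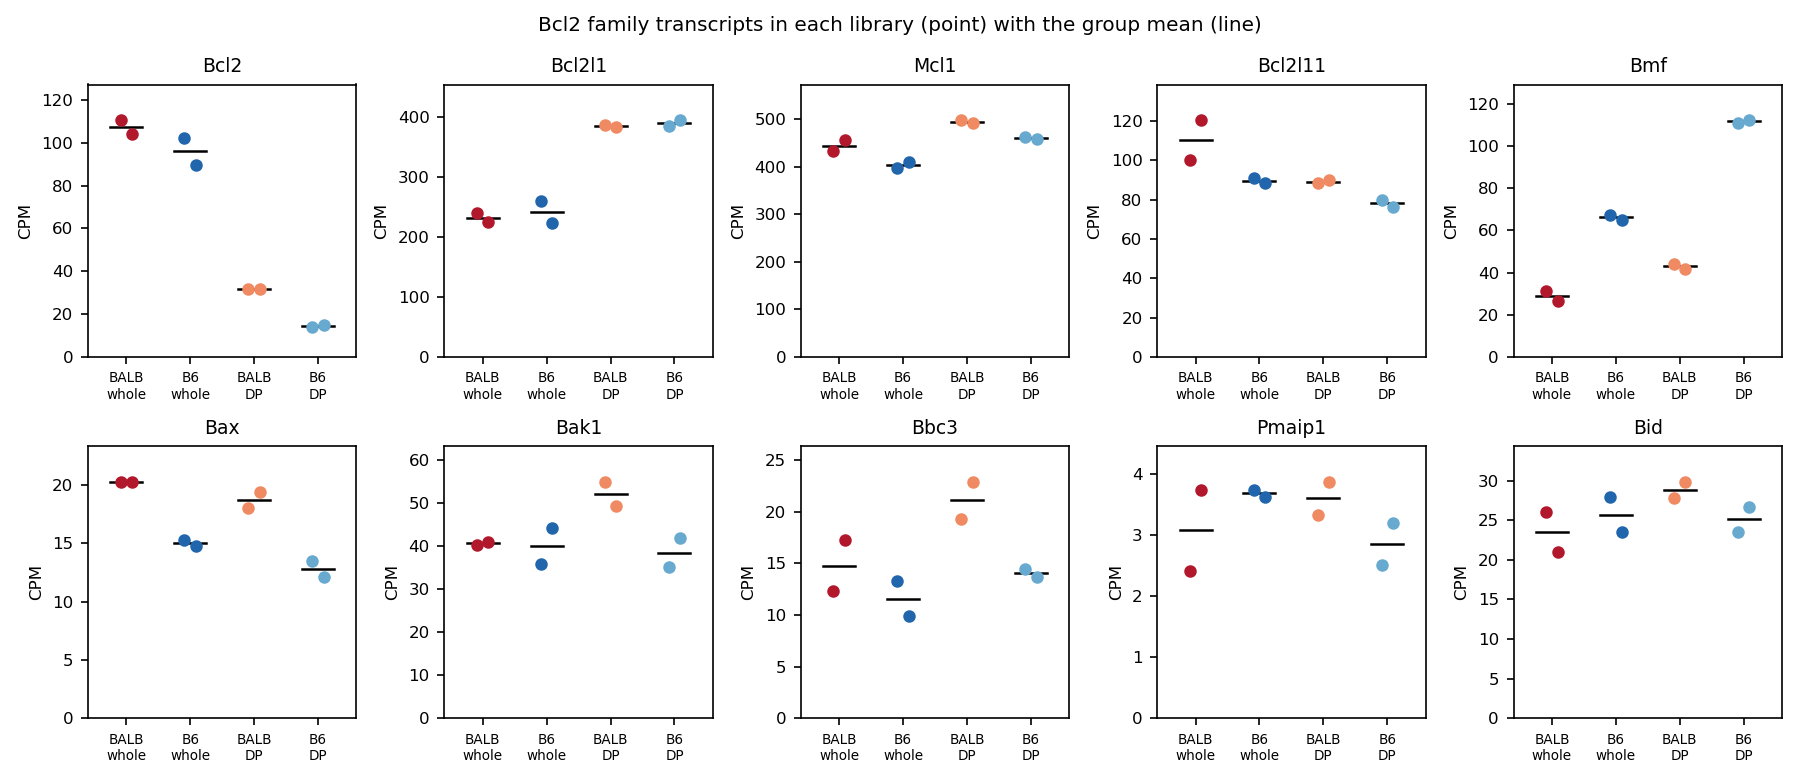
CPM (y axis, linear from 0) of each member in each library (points) with the group mean (line), in BALB whole, B6 whole, BALB DP and B6 DP thymocytes from left to right. Bcl2 separates whole from DP thymocytes and BALB DP (31.7 and 31.8) from B6 DP (14.1 and 14.9), Bcl2l1 separates only whole from DP thymocytes, and Bmf is lower in BALB than in B6 within each population.

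Among the survival genes, Bcl2 (chr1:106538178-106714274, minus strand, mm10) changed most. It had 111 and 104 CPM in BALB whole thymocytes, 102 and 89.7 CPM in B6 whole thymocytes, 31.7 and 31.8 CPM in BALB DP thymocytes, and 14.1 and 14.9 CPM in B6 DP thymocytes. Every whole library was higher than every DP library, every BALB DP library was higher than both B6 DP libraries, and both BALB whole libraries were slightly higher than both B6 whole libraries. The B6 DP values rest on 45 and 65 counts and the BALB DP values on 181 and 82 counts. Whole over DP, the log2 fold change was 1.75 ± 0.13 in BALB (edgeR adjusted p = 5.68e-06) and 2.72 ± 0.15 in B6 (edgeR adjusted p = 7.32e-07). BALB over B6, it was 1.13 ± 0.16 in DP thymocytes (edgeR adjusted p = 0.000813), which is 2.18-fold. In whole thymocytes it was 0.16 ± 0.12 (95% interval -0.10 to 0.42, edgeR adjusted p = 0.661). Averaged over both populations it was 0.64 ± 0.10 (edgeR adjusted p = 0.00106). The calls for whole over DP and for the strains in DP thymocytes held under all 14 alternatives to the fit, and the averaged call under all 13 that could be run for it. An antisense gene, D630008O14Rik, shares 558 exon bases with Bcl2 in GENCODE M21, and the library kit does not keep strand, so reads of the pair cannot be told apart.

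The gap of Bcl2 between populations was 1.75 log2 units in BALB and 2.72 in B6, but the difference between these gaps was not called over all genes. The difference of the differences, BALB minus B6 in whole thymocytes less that in DP thymocytes, was -0.97 ± 0.20 on the log2 scale, with an unadjusted p of 0.000436 and an edgeR adjusted p of 0.124. No member was called in this interaction by edgeR, against 0.123% of all genes, 0.105% higher and 0.0175% lower. At an unadjusted p under 0.05, 1 of 10 members passed in edgeR's test (Bcl2), beside 10.9% of all genes. DESeq2's Wald test called 0 members, and 24 of all 11409 genes. The Bcl2 interaction was called without BALB DP replicate 2 (edgeR adjusted p = 0.00443), without replicate 1 of both BALB groups (0.0361) and with no filter on low counts (0.0109), and over all 13 alternatives its adjusted p ran between 0.00443 and 0.485.

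Bcl2l1 (chr2:152780668-152831728, minus strand), the survival gene known for its role in DP thymocytes, was higher in DP than in whole thymocytes of both strains. It had 240.3 and 224 CPM in BALB whole and 260 and 224 CPM in B6 whole thymocytes, against 386 and 384 CPM in BALB DP and 385 and 396 CPM in B6 DP thymocytes. Whole and DP libraries did not overlap, while the strains overlapped in both populations. Whole over DP, Bcl2l1 fell by 0.73 ± 0.10 on the log2 scale in BALB (edgeR adjusted p = 0.000593) and by 0.69 ± 0.10 in B6 (edgeR adjusted p = 0.00146), and both calls held under all 14 alternatives. BALB over B6, the log2 fold change was -0.02 (95% interval -0.24 to 0.20) in DP and -0.06 (-0.28 to 0.17) in whole thymocytes.

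Mcl1 (chr3:95658788-95663176, plus strand), a short-lived survival protein that binds Bim and Bak1, varied least among the 3 survival genes. It had 433 and 457 CPM in BALB whole, 397 and 411 CPM in B6 whole, 499 and 492 CPM in BALB DP, and 462 and 458 CPM in B6 DP thymocytes. The libraries were lower in whole than in DP thymocytes within each strain and higher in BALB than in B6 within each population, without overlap, but no comparison of Mcl1 was called. Whole over DP, the log2 fold change was -0.15 ± 0.089 in BALB (95% interval -0.35 to 0.04) and -0.19 ± 0.089 in B6 (-0.38 to 0.01). The B6 difference was called with only the 4 B6 libraries in the fit (edgeR adjusted p = 0.0255) and without replicate 1 of both BALB groups (0.0188). BALB over B6, it was 0.11 ± 0.089 in DP and 0.14 ± 0.089 in whole thymocytes.

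Ratios within a library need no scaling between libraries and were not tested. Bcl2 over Bcl2l1, on the log2 scale of CPM per kb, was -2.12 and -2.11 in BALB whole, -2.34 and -2.32 in B6 whole, -4.61 and -4.59 in BALB DP, and -5.77 and -5.73 in B6 DP libraries. The 4 groups did not overlap, and both genes contributed to the gap between whole and DP thymocytes. Bcl2 over Bcl2l11 was -0.05 and -0.41 in BALB whole and -0.02 and -0.17 in B6 whole, against -1.67 and -1.69 in BALB DP and -2.69 and -2.55 in B6 DP libraries. The strains overlapped in whole but not in DP thymocytes. Mcl1 over Bcl2l11 was 3.34 and 3.15 in BALB whole and 3.36 and 3.45 in B6 whole, against 3.73 and 3.68 in BALB DP and 3.76 and 3.82 in B6 DP libraries, a range of less than 1 log2 unit. Within that range every whole library was lower than every DP library, and the strains did not overlap in either population.

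**Figure D3:**
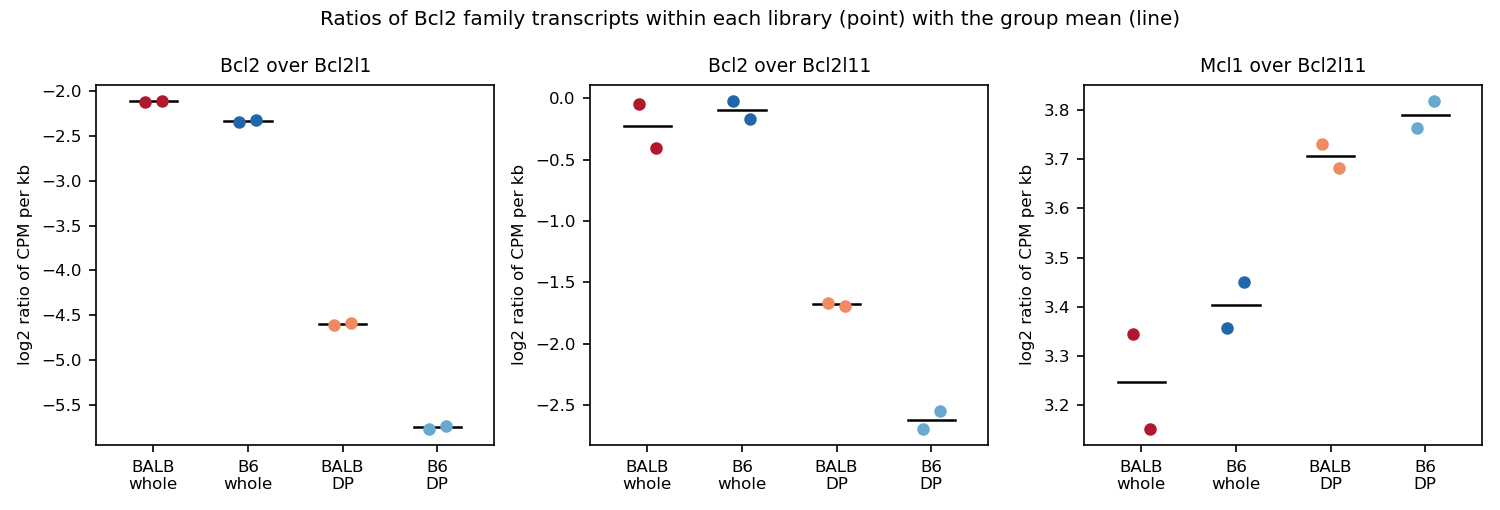
Log2 ratio of CPM per kb (y axis, not starting at 0, a separate scale per panel) for 3 pairs of members in each library (points) with the group mean (line), in BALB whole, B6 whole, BALB DP and B6 DP thymocytes. Bcl2 over Bcl2l1 is lowest in B6 DP thymocytes (-5.77 and -5.73) and highest in BALB whole thymocytes (-2.12 and -2.11). Mcl1 over Bcl2l11 lies between 3.15 and 3.82 and is lower in every whole library than in every DP library.

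Among the BH3-only genes, Bmf (chr2:118528757-118549687, minus strand), a Bcl2-modifying factor known to be held on the cytoskeleton through dynein light chain, was the member called between the strains in both populations. It had 31.4 and 26.5 CPM in BALB whole, against 67.2 and 65.1 CPM in B6 whole thymocytes, and 44.1 and 41.9 CPM in BALB DP, against 111 and 112 CPM in B6 DP thymocytes. Every BALB library was lower than every B6 library, also across populations, and within each strain the whole libraries were lower than the DP libraries. BALB over B6, Bmf fell by 1.37 ± 0.13 on the log2 scale in DP thymocytes (edgeR adjusted p = 3.49e-05) and by 1.19 ± 0.14 in whole thymocytes (edgeR adjusted p = 0.000223), and by 1.28 ± 0.094 averaged over both (edgeR adjusted p = 2.32e-06). These 3 calls held under every alternative run for them. The interaction was 0.18 ± 0.19 (95% interval -0.23 to 0.59, edgeR adjusted p = 0.768).

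Bmf also fell in whole relative to DP thymocytes. The log2 fold change was -0.76 ± 0.12 in B6 (edgeR adjusted p = 0.00277), a call that held under all 14 alternatives, and -0.58 ± 0.14 in BALB (edgeR adjusted p = 0.0152). The BALB call was lost without BALB DP replicate 1 (edgeR adjusted p = 0.0516), without BALB whole replicate 2 (0.115), with only the 4 BALB libraries (0.103) and with DESeq2's Wald test (0.0516), and over 14 alternatives its adjusted p ran between 0.00347 and 0.115. Bcl2 and Bmf moved in opposite directions in each of the 3 simple comparisons in which both were called. Their printed promoter windows share none of the motifs searched: Bcl2 holds GC boxes alone and Bmf CAGCTG alone. A link between these motifs and the levels was not tested.

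Bcl2l11 (chr2:128126038-128162547, plus strand), which encodes Bim, had 100.2 and 121 CPM in BALB whole, 91.0 and 88.3 CPM in B6 whole, 88.3 and 90.1 CPM in BALB DP, and 80.0 and 76.3 CPM in B6 DP thymocytes. BALB libraries were higher than B6 libraries in each population without overlap, and replicate 2 of BALB whole thymocytes was the highest. The log2 fold change, BALB over B6, was 0.30 ± 0.12 in whole thymocytes (edgeR adjusted p = 0.262), 0.19 ± 0.12 in DP thymocytes (0.346) and 0.25 ± 0.087 averaged over both (0.0858), none of them called. Whole over DP, it was 0.31 ± 0.12 in BALB (edgeR adjusted p = 0.107) and 0.20 ± 0.12 in B6 (0.374). Without replicate 1 of both BALB groups, Bcl2l11 was called for BALB over B6 in whole thymocytes (edgeR adjusted p = 0.0136) and averaged (0.00992), and for whole over DP in BALB (0.0309). The averaged difference was also called without BALB DP replicate 2 (edgeR adjusted p = 0.0370).

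Bbc3 (chr7:16308393-16318205, plus strand), which encodes Puma, a p53 target, had 12.3 and 17.2 CPM in BALB whole, 13.2 and 9.92 CPM in B6 whole, 19.3 and 22.9 CPM in BALB DP, and 14.4 and 13.7 CPM in B6 DP thymocytes. The strains overlapped in whole thymocytes and did not overlap in DP thymocytes. BALB over B6, the log2 fold change was 0.56 ± 0.23 in DP thymocytes (95% interval 0.06 to 1.07, edgeR adjusted p = 0.132) and 0.46 ± 0.17 averaged over both populations (edgeR adjusted p = 0.0946). The average was called without replicate 1 of both BALB groups (edgeR adjusted p = 0.0218).

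Bid (chr6:120891930-120916853, minus strand), which links death receptors to the mitochondrion after cleavage by caspase-8, had 26.1 and 21.0 CPM in BALB whole, 28.0 and 23.5 CPM in B6 whole, 27.9 and 29.9 CPM in BALB DP, and 23.5 and 26.7 CPM in B6 DP thymocytes. No comparison of Bid was called under any setting. In the simple comparisons its log2 fold changes were -0.29 and 0.03 for whole over DP in BALB and B6, and 0.19 and -0.13 for BALB over B6 in DP and whole thymocytes. Bid shares 628 exon bases with Bcl2l13 on the opposite strand. Pmaip1 (chr18:66458533-66465565, plus strand), which encodes Noxa, the partner of Mcl1, had 8 to 19 counts per library, or 2.42 to 3.88 CPM. Its 95% intervals were wide, -1.07 to 0.68 for whole over DP in BALB, -0.54 to 1.23 for whole over DP in B6, -0.62 to 1.18 for BALB over B6 in DP and -1.13 to 0.60 in whole thymocytes, and none of these comparisons was called.

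Among the pore-forming genes, Bax (chr7:45461697-45466898, minus strand) had 20.3 and 20.2 CPM in BALB whole, against 15.2 and 14.8 CPM in B6 whole thymocytes, and 18.0 and 19.4 CPM in BALB DP, against 13.5 and 12.1 CPM in B6 DP thymocytes. Every BALB library was higher than every B6 library. Averaged over both populations, the log2 fold change BALB over B6 was 0.49 ± 0.13 (edgeR adjusted p = 0.0302). This call is less firm than those of Bcl2 and Bmf: it held under 5 of 13 alternatives, and its adjusted p ran between 0.0203 and 0.182. It was lost with DESeq2's Wald test (0.182), without replicate 1 of both BALB groups (0.0506), and in single fits without B6 DP replicate 1 (0.0628) or 2 (0.133), B6 whole replicate 1 (0.0954) or 2 (0.107), or BALB whole replicate 1 (0.0752) or 2 (0.0795). Within populations Bax was not called, at 0.54 ± 0.19 in DP (edgeR adjusted p = 0.0830) and 0.43 ± 0.18 in whole thymocytes (0.286). Whole over DP, it was 0.12 ± 0.18 in BALB and 0.23 ± 0.20 in B6, neither of them called. In GENCODE M21, 192 exon bases of Bax are shared with Gm45808 on the same strand.

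Bak1 (chr17:27019810-27029009, minus strand), the other pore former, had 40.3 and 40.9 CPM in BALB whole, 35.7 and 44.3 CPM in B6 whole, 55.0 and 49.3 CPM in BALB DP, and 35.2 and 41.8 CPM in B6 DP thymocytes. BALB DP thymocytes were the highest group and overlapped no other. The log2 fold change, BALB over B6, was 0.44 ± 0.16 in DP thymocytes (edgeR adjusted p = 0.0926) and 0.02 ± 0.16 in whole thymocytes (0.980), and whole over DP it was -0.37 ± 0.16 in BALB (0.136) and 0.05 ± 0.16 in B6 (0.898). The DP strain difference (edgeR adjusted p = 0.0222) and the BALB population difference (0.0335) were called without BALB DP replicate 2. Bak1 shares 177 and 437 exon bases with separate GENCODE M21 entries named Ggnbp1 on the opposite strand, and these may be partly the same bases.

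Of 16 other family genes 8 passed the filter on low counts. In whole relative to DP thymocytes 3 of 8 rose in BALB and 2 of 8 in B6, beside 10.6% and 6.89% of all genes. Bcl2a1b and Bcl2a1d, copies of the survival gene A1, rose in both strains and rest on few reads: Bcl2a1b had 11 and 14 counts in BALB whole, 15 and 12 in B6 whole, 1 and 0 in BALB DP, and 0 and 2 in B6 DP libraries. Bcl2a1d had 12 and 4 counts in BALB whole, 11 and 7 in B6 whole, and 0 in every DP library. The copies passed the filter only through whole libraries, so their rise in whole thymocytes was nearly fixed in advance. They were the 2 genes that rose in B6 and 2 of the 3 in BALB. Those counts therefore cannot be read against the shares of all genes. These copies are nearly identical, so how reads were divided between them is uncertain. Without B6 DP replicate 1 or either B6 whole replicate the B6 calls of both were lost (edgeR adjusted p between 0.0706 and 0.195), that of Bcl2a1d also without B6 DP replicate 2 (0.175), and the BALB call of Bcl2a1d without BALB DP replicate 1 (0.130) or BALB whole replicate 1 (0.154). Bcl2l2, which encodes the survival protein Bcl-w, had 6.28 and 5.24 CPM in BALB whole, 8.75 and 9.68 in B6 whole, 1.75 and 2.33 in BALB DP, and 5.34 and 7.08 in B6 DP thymocytes. It rose by 1.55 ± 0.38 on the log2 scale in BALB whole over BALB DP thymocytes (edgeR adjusted p = 0.0161) and fell by 1.68 ± 0.38 in BALB DP relative to B6 DP thymocytes (edgeR adjusted p = 0.0138), the direction opposite to Bcl2. DESeq2's Wald test called none of the 8 genes in that strain comparison, and 1015 of all 11409 genes. In edgeR, 3 of the 8 had an unadjusted p under 0.05 there, beside 28.8% of all genes. Without BALB DP replicate 1 both Bcl2l2 calls were lost (edgeR adjusted p = 0.153 and 0.144), the population call also without BALB whole replicate 1 (0.0894) and the strain call also without B6 DP replicate 2 (0.145).

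Downstream of the mitochondrion, cytochrome c and the apoptosome activate the caspases. Of genes of the apoptosome, the caspases and their inhibitors, 17 were tested. For whole over DP, 1 of 17 was called in BALB (17.2% of all genes) and 0 in B6 (10.2%). In B6, 4 of the 17 passed an unadjusted p under 0.05 in edgeR, beside 23.9% of all genes. DESeq2's Wald test called 0 of the 17 there, and 748 of all 11409 genes. Between strains 2 of 17 were called, both higher in BALB DP than in B6 DP thymocytes, against 13.0% of all genes called in either direction. These were Birc5, the mitotic inhibitor-of-apoptosis protein survivin, with 198 and 154 CPM in BALB DP and 99.5 and 88.7 CPM in B6 DP libraries (0.92 ± 0.14, edgeR adjusted p = 0.00120), and Cycs, which encodes cytochrome c, with 32.8 and 22.5 CPM in BALB DP and 13.8 and 15.5 CPM in B6 DP libraries (0.94 ± 0.22, edgeR adjusted p = 0.0141). The Cycs call was lost without BALB DP replicate 1 (0.61, edgeR adjusted p = 0.157) or either B6 DP replicate (0.0945 and 0.0836). In BALB, Birc5 fell in whole relative to DP thymocytes, with 105 and 115 CPM in whole libraries (-0.69 ± 0.13, edgeR adjusted p = 0.00437).

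Of 12 tested death receptor genes, 2 rose in whole over DP thymocytes in BALB and 1 in B6, beside 10.6% and 6.89% of all genes that were higher, and none fell. Tnfrsf1b, a tumour necrosis factor receptor without a death domain, rose by 1.45 ± 0.20 on the log2 scale in both strains (edgeR adjusted p = 0.000449 in BALB and 0.000911 in B6). Traf1, an adaptor of that receptor, had 29.7 and 23.2 CPM in BALB whole, 29.0 and 33.4 in B6 whole, 7.53 and 14.0 in BALB DP, and 19.2 and 29.9 in B6 DP thymocytes. It rose in BALB whole over BALB DP thymocytes (1.41 ± 0.30, edgeR adjusted p = 0.00747) and fell in BALB DP relative to B6 DP thymocytes (-1.32 ± 0.30, edgeR adjusted p = 0.0149). Without BALB DP replicate 1 both Traf1 calls were lost (edgeR adjusted p = 0.0683 and 0.126), the population call also without BALB whole replicate 1 (0.0689) and the strain call also without B6 DP replicate 2 (0.180).

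Known regulators of the family changed in both directions. Of 23 tested, 5 rose and 4 fell for whole over DP in BALB, and 4 rose and 4 fell in B6. Of all genes 10.6% rose and 6.59% fell in BALB, and 6.89% rose and 3.27% fell in B6. Il7r, the receptor for interleukin 7, a cytokine that raises Bcl2 in mature thymocytes, had 89.4 and 71.6 CPM in BALB whole and 54.5 and 42.3 CPM in B6 whole thymocytes, and 0 to 5 counts in DP libraries. Nr4a1, an orphan nuclear receptor induced by antigen receptor signals whose protein can bind Bcl2, had 72.9 and 89.4 CPM in BALB whole and 55.2 and 50.3 CPM in B6 whole thymocytes, against 22.6 and 33.0 CPM in BALB DP and 9.10 and 9.37 CPM in B6 DP thymocytes. It rose by 1.54 ± 0.23 on the log2 scale in BALB DP over B6 DP thymocytes (edgeR adjusted p = 0.00143). Its relative Nr4a3 also rose in whole over DP thymocytes of both strains and had 0 to 8 counts in DP libraries. Il7r and Nr4a3 passed the filter on low counts only through whole libraries, so their rise there was nearly fixed in advance.

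In DP thymocytes, 2 of the 23 regulators were higher and 3 lower in BALB than in B6, beside 6.85% and 6.14% of all genes. The other higher gene was Dynll1, a dynein light chain that binds Bim, with 231 and 145 CPM in BALB DP and 98.3 and 117 CPM in B6 DP libraries (0.81 ± 0.20, edgeR adjusted p = 0.0191). Its call was lost without BALB DP replicate 1 (0.42, edgeR adjusted p = 0.104) or either B6 DP replicate (0.145 and 0.0753). The lower genes included Foxo1, a forkhead factor known to drive Bcl2l11 and Il7r, with 48.5 and 53.2 CPM in BALB DP and 86.0 and 74.3 CPM in B6 DP libraries (-0.66 ± 0.14, edgeR adjusted p = 0.00906), and Ets1 (-0.36 ± 0.082, edgeR adjusted p = 0.0152). The Foxo1 call was lost without B6 DP replicate 1 (edgeR adjusted p = 0.0945) and the Ets1 call without B6 DP replicate 1 (0.146) or 2 (0.0712). With only the 4 DP libraries compared, the strain calls of Bcl2l2, Cycs, Traf1, Dynll1, Foxo1 and Ets1 were lost (edgeR adjusted p between 0.0558 and 0.0964). By DESeq2's Wald test the calls of Bcl2l2 in both comparisons (adjusted p = 0.0739 and 0.0567) and of Bcl2a1b in B6 (0.0722) were lost. Dynll1 and Cycs have near-identical copies in the mouse genome, so their counts are uncertain.

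Markers of other thymocyte stages also differed between the groups, and their part in the results was not tested. The summed CPM of 10 mature thymocyte genes was 910 and 948 in BALB whole and 919 and 879 in B6 whole, against 647 and 533 in BALB DP and 741 and 760 in B6 DP libraries. In DP libraries most of that sum was Ifngr1 and Gimap6. Of 9 tested, 8 were higher in whole than in DP thymocytes in BALB and 1 was lower, beside 10.6% and 6.59% of all genes. The lower gene was Ifngr1 (-0.42 ± 0.12, edgeR adjusted p = 0.0288). In B6, 6 of 9 were higher and 0 lower, beside 6.89% and 3.27% of all genes. Several of the higher genes, S1pr1 and Il7r among them, passed the filter only through whole libraries, so their rise was nearly fixed in advance. Of the 9 tested, 1 was higher and 2 were lower in BALB DP than in B6 DP thymocytes, beside 6.85% and 6.14% of all genes. The higher gene was Gimap4, with 11 and 8 counts in BALB DP and 1 and 4 counts in B6 DP libraries (1.76 ± 0.53, edgeR adjusted p = 0.0488). The lower genes were Gimap6 (-0.49 ± 0.14, edgeR adjusted p = 0.0406) and Ccr7, with 0 and 1 counts in BALB DP and 5 and 10 counts in B6 DP libraries. S1pr1 had 1 and 0 counts in BALB DP and 0 in both B6 DP libraries, and Ms4a4b had 14 and 4 counts in BALB DP and 3 and 6 in B6 DP libraries. Il7r had 3 and 0 counts in BALB DP and 1 and 5 in B6 DP libraries. The summed CPM of 10 genes of antigen receptor signalling and positive selection, Nr4a1 among them, was 1140 and 1249 in BALB whole, 901 and 825 in B6 whole, 624 and 648 in BALB DP, and 357 and 361 in B6 DP libraries. Of 9 tested, 5 were higher in BALB DP than in B6 DP thymocytes and 0 lower, beside 6.85% and 6.14% of all genes. Egr2 was at 0 in every library. Within the CD69-negative gate, Cd69 itself had 21.5 and 17.9 CPM in BALB DP and 13.5 and 14.4 CPM in B6 DP libraries.

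**Figure D4:**
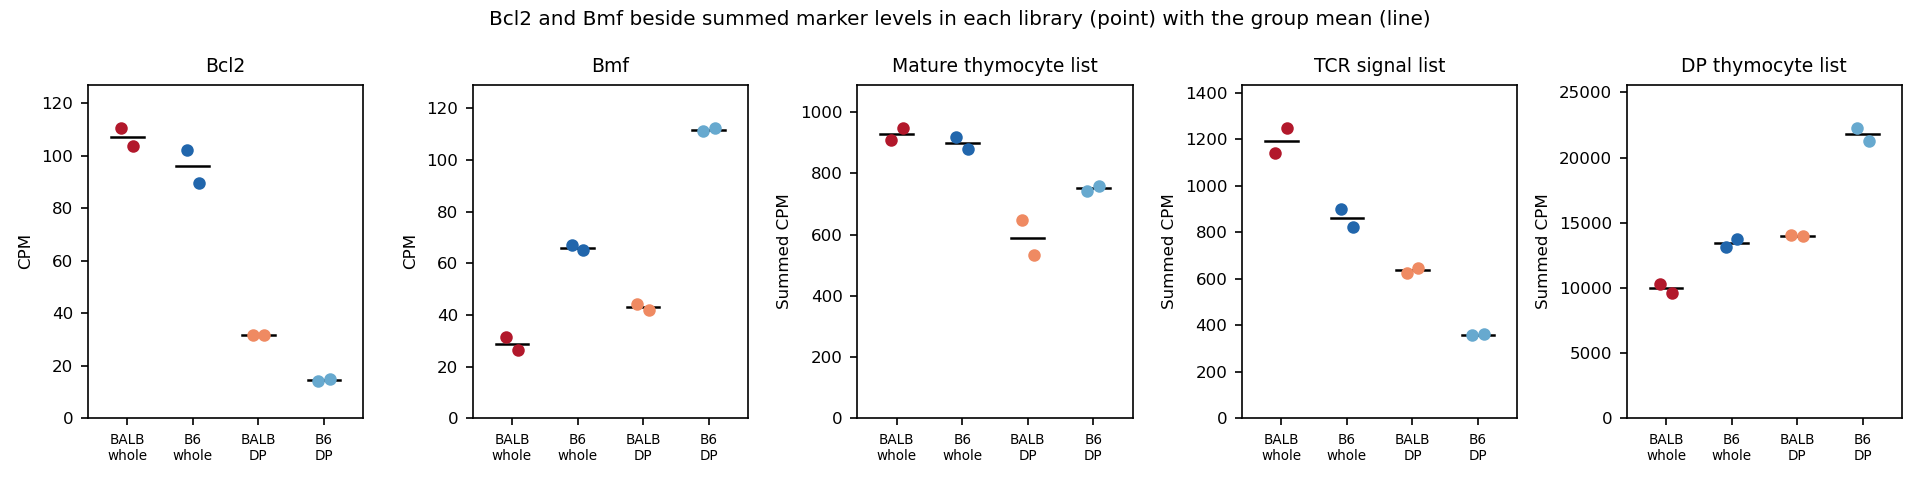
CPM of Bcl2 and Bmf and summed CPM of the mature thymocyte, antigen receptor signal (TCR signal) and DP thymocyte marker lists (y axes, linear from 0) in each library (points) with the group mean (line), in BALB whole, B6 whole, BALB DP and B6 DP thymocytes. Bcl2 and the TCR signal list are lowest, and Bmf and the DP list highest, in B6 DP thymocytes.

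The summed CPM of 10 DP markers was 10319 and 9632 in BALB whole, 13129 and 13773 in B6 whole, 14034 and 14004 in BALB DP, and 22260 and 21283 in B6 DP libraries. Between the strains 5 of the 10 were lower in BALB in each population, beside 6.14% of all genes in DP and 2.61% in whole thymocytes. Much of the sum was Rag1, at 4811 and 4845 CPM in BALB DP and 10504 and 9864 CPM in B6 DP libraries. Among other cell types, 11 myeloid and dendritic genes summed to 224 and 240 CPM in BALB whole and 209 and 191 CPM in B6 whole, against 28.6 and 28.3 CPM in BALB DP and 29.5 and 33.1 CPM in B6 DP libraries. None of the 11 was called between the strains in DP thymocytes by edgeR or DESeq2's Wald test, and 1 had an unadjusted p under 0.05 in edgeR. Of all 11409 genes, edgeR called 13.0% there, and 28.8% had an unadjusted p under 0.05 in edgeR. DESeq2's Wald test called 1015 of them. Double-negative precursor genes (8) summed to 209 and 216 CPM in BALB whole and 262 and 220.1 CPM in B6 whole, against 118 and 144 CPM in BALB DP and 128 and 137 CPM in B6 DP libraries. B cell genes (6 in the files) summed to 21.0 and 16.0 CPM in BALB whole and 26.0 and 21.8 CPM in B6 whole, against 4.73 and 3.11 CPM in BALB DP and 10.4 and 11.0 CPM in B6 DP libraries. These lists were higher in every whole library than in every DP library, as the myeloid list was. Erythroid genes (4, with Hba-a1 and Hba-a2 at 0) summed to 4.27 to 16.2 CPM and endothelial and mesenchymal genes (8, mostly Pecam1) to 124 to 171 CPM per library. Thymic epithelial genes (9) summed to 82.4 and 85.1 CPM in BALB whole and 35.5 and 45.0 CPM in B6 whole libraries. In DP libraries they summed to 12.4 and 13.6 CPM in BALB and 19.5 and 20.3 CPM in B6. Most of the DP sum was Cldn4, at 9.64 and 8.93 CPM in BALB and 14.1 and 14.6 CPM in B6. Cldn4 was lower in the whole libraries of each strain, and neither difference was called. The part of these other cell types in the results was not tested.

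Genes with the pattern most like each member were found among 8290 genes by the root mean square difference of centred log2 (CPM + 1) over the 8 libraries. The closest to Bcl2 were Ephx1 (0.23), Nab2 (0.26) and Nr4a1 (0.29), where Bcl2 itself varied by 1.16 on the same measure. For Bmf, which varied by 0.72, they were Soat1 (0.14), Wdr78 (0.16) and Gbp8 (0.17). For Bcl2l1, which varied by 0.36, they were Fam122a (0.061), Ets2 (0.098) and Nebl (0.099). The other 7 members varied by only 0.11 to 0.34. Their nearest genes were Gxylt1 for Mcl1 (0.032), Cbx8 for Bcl2l11 (0.058), Lman1 for Bax (0.070), Phf23 for Bak1 (0.057), Azi1 for Bbc3 (0.14), Ndufa7 for Pmaip1 (0.069) and Copg2 for Bid (0.058).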

How the data were processed

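Per the labels' protocols, cells were sorted on a FACSAria III, and the TruSeq RNA Sample Prep Kit v2, an unstranded kit, was used for libraries. The submitters' processing notes name HISAT2 2.2.0, HTSeq, DESeq2 1.42.1 and mm10. No role, gene annotation or HTSeq version is given in the sources used here. Each deposited file is a table of raw read counts by gene symbol. HTSeq's summary lines (reads in no gene, ambiguous, not aligned or not unique) were left out of library sizes, so that 22.6% to 30.8% of reads in the files were in genes, 2632083 to 5974684 per library.

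The analysis used edgeR 4.0.16 in R 4.3.3. After filterByExpr 11409 genes were tested and 6025 others with reads were not. Libraries were scaled by TMM (factors 0.957 to 1.05), and a quasi-likelihood model with 1 coefficient per group was fitted over all 8 libraries (common biological coefficient of variation 0.114). The difference averaged over populations and the interaction are contrasts of that model, not a separate additive fit. Genes were called at a Benjamini-Hochberg adjusted p under 0.05 over all genes. Errors are standard errors for log2 fold changes and standard deviations over 2 libraries for CPM. The script was tested on simulated data.

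The members and all gene lists were chosen with earlier results of these data known. The text names all members, up to 4 called genes with the smallest p per comparison in each pathway list, except 1 gene that is not reported here, and for each member the 3 genes with a mean of at least 10 CPM that were most like it. Markers are given as lists by their sums. The single markers printed (S1pr1, Ccr7, Gimap4, Ms4a4b, Cd69, Rag1, Ifngr1, Gimap6, Egr2, Pecam1, Cldn4 and the hemoglobin genes) were picked after their values were seen. Same-numbered replicates did not deviate together (correlations between -0.041 and 0.066), so the numbers were not used to pair libraries. Alternatives were DESeq2 1.42.0 size factors, its Wald test, no filter, a replicate block, only the 4 libraries compared, each library left out, and replicate 1 of both BALB groups left out. Exon lengths came from GENCODE M21 and promoter windows from RefSeq. Python 3.11.15 and matplotlib 3.10.9 drew the figures.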

Additional observations from a re-analysis of the deposited data

How the results depend on the processing

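Of 820 member fold changes recomputed under alternatives, 769 kept direction and call, 12 lost their call, 12 gained one and 27 reversed, none of the reversed ones called. DESeq2 size factors changed no member's call. In all comparisons below the cause of a change was not tested.

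With a replicate block no member's call changed. The genes called were 1777 and 1033 for whole over DP in BALB and B6, 1321 and 465 for BALB over B6 in DP and whole thymocytes, 1427 averaged and 11 in the interaction, against 1961, 1159, 1482, 524, 1587 and 14 without the block. With only the 4 libraries compared, the first 4 counts were 1101, 2568, 562 and 1050. DESeq2's Wald test called 748 genes for whole over DP in B6 and 24 in the interaction. With no filter, 839 genes were called for BALB over B6 in whole thymocytes and 364 in the interaction, where 1 member (Bcl2) was called. Without replicate 1 of both BALB groups, 2809 genes were called for whole over DP in B6, 1046 for BALB over B6 in whole thymocytes and 139 in the interaction, with 2 members called for BALB over B6 in whole thymocytes (Bmf and Bcl2l11) and 1 in the interaction (Bcl2), and Bid averaged turned to -0.044.

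Leaving out each library, genes called ran between 1040 and 3976 (whole over DP, BALB), 378 and 2201 (whole over DP, B6), 509 and 3493 (BALB over B6, DP), 214 and 966 (BALB over B6, whole), 834 and 3435 (averaged) and 0 and 1311 (interaction). Members called ran between 2 and 4, 3 and 3, 2 and 3, 1 and 1, 2 and 4, and 0 and 1. Log2 fold changes that changed sign, none called, were for whole over DP Pmaip1 in BALB (-0.54 to 0.081) and Bak1 (-0.12 to 0.20) and Bid (-0.11 to 0.15) in B6. For BALB over B6 they were Bcl2l1 in DP (-0.038 to 0.0089), and Bcl2l1 (-0.16 to 0.054), Bak1 (-0.12 to 0.18), Pmaip1 (-0.60 to 0.023) and Bid (-0.29 to 0.020, and -0.32 without replicate 1 of both BALB groups) in whole thymocytes. Averaged they were Bcl2l1 (-0.089 to 0.018), Pmaip1 (-0.16 to 0.15) and Bid (-0.052 to 0.10), and in the interaction Bcl2l1 (-0.14 to 0.072), Mcl1 (-0.014 to 0.070), Bcl2l11 (-0.030 to 0.24) and Bbc3 (-0.47 to 0.0080). Where 1 library remained in a group, it was assumed to vary like the others. Pmaip1 had 8 to 19 counts per library and the widest intervals of the members.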
